A study of Mus musculus with 374 samples.

Results

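T lymphocytes sorted from the thymus were selected on the CD3 fluorescence that the cell sorter recorded for each cell. The top 14 cells (CD3-high) were set against the bottom 14 (CD3-low). They are 28 of the 43 T lymphocytes measured, each in a well of its own, on a plate of which 374 wells were analysed here. The remaining 15 T lymphocytes (CD3-middle) are given as values between them. All cells came from 1 C57BL/6 female mouse, 10 to 13 weeks old, and the T lymphocytes had been gated as CD3+ with low forward scatter. Transcripts were measured by CEL-seq2, which counts unique molecular identifiers (UMIs) at the 3′ end of each mRNA.

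CD3 fluorescence is what chose the wells, so its values are a description. In arbitrary units it ran from 4889 to 8322 in the CD3-low wells (median 6903.5) and from 13116 to 25573 in the CD3-high wells (median 14807.5). The CD3-middle wells lay between 8332 and 12656, so the wells just inside and just outside each limit were close. No transcript entered the choice, and cells outside the CD3+ gate were not collected as T lymphocytes. The CD3-low group had 9 wells in plate row O and 5 in row P, and the CD3-high group 8 and 6. The 14 cells of a group share 1 mouse, so each group is 1 sample and no p-value was computed. Each 95% interval below covers counting error only.

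CD3 is the signalling part of the T cell receptor (TCR) on the cell surface. In the thymus, immature cells carry both coreceptors, CD4 and CD8, with little TCR on the surface. Cells whose receptor is engaged by self-peptide on MHC are positively selected, raise the receptor, and keep CD4 or CD8 alone before they leave. Genes such as Nr4a1, Egr1, Cd69 and Cd5 are known to be induced by TCR signals, and Gimap genes encode small GTPases that T cells use to survive.

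The CD3-low wells held 66471 UMIs on mouse genes and the CD3-high wells 56903. Single wells had 2834 to 8411 UMIs in the CD3-low group (median 4708.5) and 426 to 6877 in the CD3-high group (median 4187). Levels are given as CPM, the UMIs of a gene scaled to a common total (per 1000000 UMIs on mouse genes). The well with 426 UMIs, at plate position P4, stood apart. It had 0 UMIs on the 8 T lymphocyte markers (Cd3d, Cd3e, Cd3g, Trac, Trbc1, Trbc2, Lck and Tcf7), and 11.97% of its UMIs came from hemoglobin genes, whereas the other 13 CD3-high wells had at least 21 marker UMIs. Without it, the log2 ratios of the gene lists given below moved by less than the intervals printed with them. Both groups carried the markers of T lymphocytes, at 6619 CPM (interval 6015 to 7268) in the CD3-low and 7908 CPM (7194 to 8674) in the CD3-high wells.

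A pair of promoters is printed, of the coreceptor gene Cd8a and of the TCR-induced gene Nr4a1, because these genes stand for the largest differences found in each direction. The Cd8a window lies at chr6:71373177-71373476 and the Nr4a1 window at chr15:101266596-101266895, both on the + strand of GRCm38.p6 in RefSeq, from 250 bases before to 50 bases after the start that RefSeq gives the gene. For Nr4a1 this start lies inside the longer gene of GENCODE. Capitals mark CAGCTG, an E-box that E proteins can bind, in Cd8a, and TGCGTCA, which resembles a cAMP response element, in Nr4a1.
Cd8a: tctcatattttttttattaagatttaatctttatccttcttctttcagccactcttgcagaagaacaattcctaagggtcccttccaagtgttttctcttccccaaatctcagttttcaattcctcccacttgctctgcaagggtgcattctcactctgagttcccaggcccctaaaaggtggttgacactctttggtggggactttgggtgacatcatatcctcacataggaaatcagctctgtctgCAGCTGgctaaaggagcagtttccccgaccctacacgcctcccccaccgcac
Nr4a1: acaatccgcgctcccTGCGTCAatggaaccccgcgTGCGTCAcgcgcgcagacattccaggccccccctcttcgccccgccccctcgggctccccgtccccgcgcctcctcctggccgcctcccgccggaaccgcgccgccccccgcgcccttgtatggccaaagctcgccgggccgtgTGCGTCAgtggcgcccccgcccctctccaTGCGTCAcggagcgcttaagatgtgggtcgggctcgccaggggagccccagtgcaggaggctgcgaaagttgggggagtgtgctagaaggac
CAGCTG reads the same on both strands and occurred at 1 place, beginning 2 bases before the start and running across it. TGCGTCA was searched on both strands and occurred at 4 places, all on the + strand and none overlapping another. Of 32851 promoters of this length, 16.3% held CAGCTG and 2.12% held TGCGTCA. A match is a description of letters and not a measured site.

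The clearest difference lay in the genes of the CD8 coreceptor. Cd8a and Cd8b1, which encode its α and β chains and lie near each other on chromosome 6, together had 80 UMIs in the CD3-low wells, 124 in the CD3-middle wells and 5 in the CD3-high wells. That is 1204 CPM (954 to 1498) against 87.9 CPM (28.5 to 205), or 13.7-fold less in the CD3-high wells, with a log2 ratio of -3.78 (-5.44 to -2.49). Cd4, which encodes the other coreceptor, had 17, 16 and 20 UMIs in the same order.

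Cd8a (ENSMUSG00000053977, chromosome 6, 71373427 to 71379173 in GRCm38) had 0 to 17 UMIs per CD3-low well (median 0.5) and 0 or 1 per CD3-high well (median 0). Its sums were 42 and 2 UMIs, a log2 ratio of -4.17 (-7.26 to -2.23). Cd8b1 (ENSMUSG00000053044, chromosome 6, 71322788 to 71337494) had 0 to 13 UMIs per CD3-low well (median 0.5) and 0 to 2 per CD3-high well (median 0), with sums of 38 and 3 UMIs and a log2 ratio of -3.44 (-5.78 to -1.78). The groups overlapped at low counts, and no CD3-high well had more than 2 UMIs of either gene.

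The CD8 transcripts came from a subset of the wells and not from all CD3-low wells. At least 3 UMIs on Cd8a and Cd8b1 were found in 6 of 14 CD3-low, 8 of 15 CD3-middle and 0 of 14 CD3-high wells. These 14 wells had CD3 fluorescence from 5865 to 12426 and held 202 of the 209 CD8 UMIs of the T lymphocytes, and 3 of them also had a Cd4 UMI. The 5 wells with the highest CD8 counts had 28, 25, 25, 19 and 18 UMIs. The other 8 CD3-low wells had 0 to 2 CD8 UMIs, so the sum of the group is that of its CD8-bearing wells.

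A UMI of either CD8 gene was present in 50.0% of CD3-low wells (23.0 to 77.0), 53.3% of CD3-middle wells (26.6 to 78.7) and 28.6% of CD3-high wells (8.39 to 58.1). In B lymphocytes, which should lack the genes, it was 4.55% (0.555 to 15.5) at a median of 3028.5 UMIs per well, against 4187 in the CD3-high wells. When each well was thinned to 1500 UMIs, the shares were 21.4%, 46.7% and 15.4%, the last of 13 wells. No order was read from these shares, since they rest on 3 and 2 wells in the outer groups. The CPM of the thinned wells was 904.8 in the CD3-low and 102.6 in the CD3-high group.

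Well P19 held 17 of the 42 Cd8a UMIs of the CD3-low wells, and without it the log2 ratio of Cd8a, with sums under 3 UMIs set to 3, was -2.92 instead of -3.58. With wells thinned to 1500 UMIs it was -1.77, and with 21 wells at each end, which takes in CD3-middle wells, it was -1.11. Within plate row O it was -2.63 and within row P -2.59. The CD3-high wells held only 2 Cd8a UMIs, so their side was at the floor without P19, in thinned wells and in each row. These values are therefore limited by the UMIs of the CD3-low side and do not show a smaller difference.

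**Figure D1:**
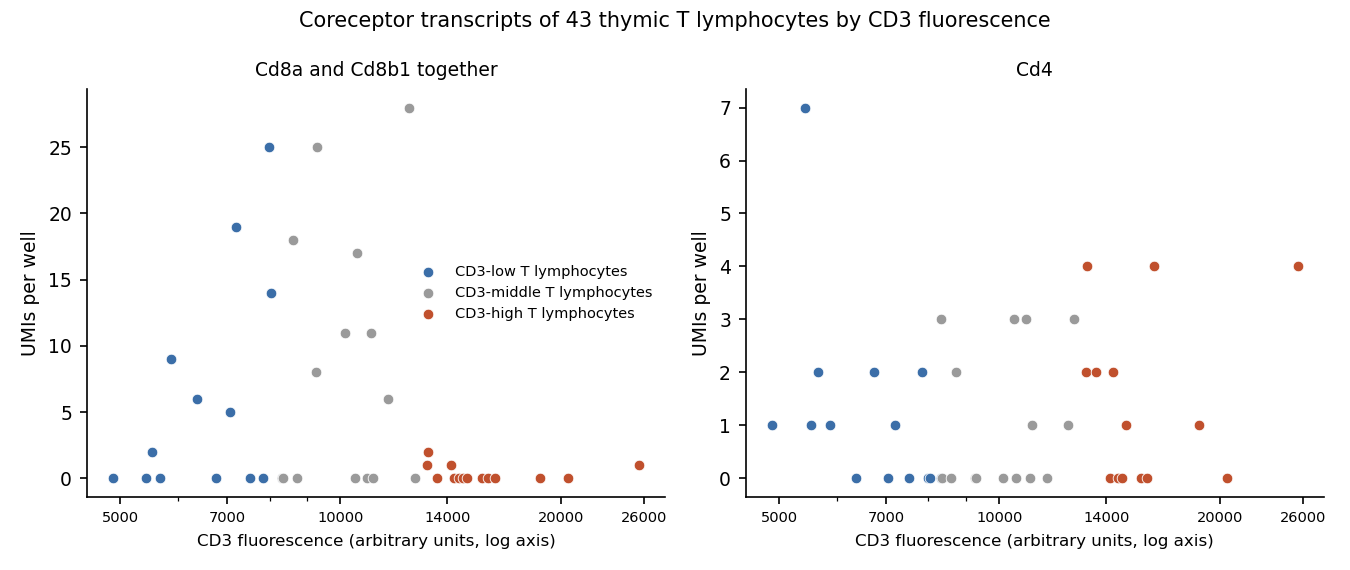
UMIs per well of Cd8a and Cd8b1 together (left) and of Cd4 (right) against the CD3 fluorescence of the same cell (arbitrary units, log axis), 1 point per well, colored by group. Wells with 5 or more CD8 UMIs lie at a CD3 fluorescence from 5865 to 12426 and none lies among the CD3-high wells, whereas Cd4 UMIs occur along the whole range.

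Cd4 had 0 to 7 UMIs per CD3-low well and 0 to 4 per CD3-high well, with a median of 1 in both. Its log2 ratio was 0.46 (-0.55 to 1.48). A Cd4 UMI was found in 8 of 14 CD3-low and 8 of 14 CD3-high wells, and well O17 held 7 of the 17 CD3-low UMIs. Without O17 the log2 ratio was 1.14. The 2 groups did not differ in Cd4 beyond counting error. Zbtb7b, which encodes ThPOK and is needed for the CD4 lineage, had 9 and 10 UMIs, and Runx3, which acts in the CD8 lineage, had 2 and 0.

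Transcripts of the receptor itself were somewhat higher in the CD3-high wells as a sum. The 6 measured genes of the TCR and CD3 complex had 351 UMIs in the CD3-low and 373 in the CD3-high wells, 5280 CPM (4742 to 5863) against 6555 CPM (5907 to 7255), a log2 ratio of 0.31 (0.10 to 0.53). The 3 TCR constant region genes and the 3 CD3 chains did not go together. The constant regions were higher in the CD3-high wells, at 0.48 (0.24 to 0.73), and the CD3 chains stood at -0.27 (-0.74 to 0.19).

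Trac (chromosome 14), the constant region of the TCR α chain, had 0 to 20 UMIs per CD3-low well (median 4), 1 to 16 per CD3-middle well (median 5) and 0 to 18 per CD3-high well (median 7.5). The sums of 71, 88 and 106 UMIs are 1068, 1143 and 1863 CPM, and the log2 ratio of CD3-high over CD3-low was 0.80 (0.36 to 1.26). The wells of the 2 groups overlapped over almost the whole range. Trbc1 and Trbc2, the 2 constant regions of the β chain, had log2 ratios of 0.48 (-0.11 to 1.07) and 0.29 (-0.06 to 0.64). They are near-identical copies whose reads may have been split between them.

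Among the CD3 chains, Cd3d stood at 0.32 (-0.47 to 1.12) and Cd3g at -0.38 (-1.14 to 0.36). Cd3e had 27 UMIs in the CD3-low and 11 in the CD3-high wells, a log2 ratio of -1.07 (-2.23 to -0.01). The gene overlaps other annotated genes, to which reads may also belong. The ε chain, which pairs with both the γ and the δ chain, was thus the only 1 of the 6 measured genes past 2-fold. Its direction was opposite to the fluorescence. Well O8 held 6 of its 27 CD3-low UMIs, and its ratio without single wells was not computed. Across all 1058 genes with at least 20 UMIs in both groups together, 5.1% were at least 2-fold higher and 4.73% at least 2-fold lower in the CD3-high wells, with a median log2 ratio of 0.07.

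Genes induced by TCR signals and positive selection were higher in the CD3-high wells as a sum, and a few wells carried them. The 14 measured genes of this list had 192 UMIs in the CD3-low and 266 in the CD3-high wells, 2888 CPM (2494 to 3327) against 4675 CPM (4130 to 5271), a log2 ratio of 0.70 (0.42 to 0.97). Of them, 10 had at least 20 UMIs, with a median log2 ratio of 0.73, and 4 of these were at least 2-fold higher and 0 at least 2-fold lower. The shares over all 1058 genes were 5.1% and 4.73%. The 4 were Nr4a1, Egr1, Cd6 and Gata3, whose dependence on single wells or plate rows is given below. Nr4a1 passed the minimum of 20 UMIs through the CD3-high wells alone, so the median and the counts are a description.

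Nr4a1 (ENSMUSG00000023034), a nuclear receptor that follows the strength of the TCR signal, had 0 UMIs in all 14 CD3-low and all 15 CD3-middle wells. It had 23 UMIs in the CD3-high wells, from 5 of 14 wells with 14, 4, 2, 2 and 1 UMIs. Against a floor of 3 UMIs for the CD3-low group this is at least 8.96-fold higher, and with counting error in both groups the exact interval of the log2 ratio starts at 2.75. The share of wells with a UMI was 35.7% (12.8 to 64.9) in the CD3-high wells, and the intervals of 0 of 14 and 0 of 15 reach 23.2% and 21.8%. In B lymphocytes it was 4.55% (0.555 to 15.5). Well O7 held 14 of the 23 UMIs, and without it the log2 ratio on this floor was 1.92 instead of 3.16. It was 0.41 in plate row P alone, 1.24 with 10 wells at each end and 1.11 in thinned wells. The CD3-low side was at the floor in each, so these values are limited by the UMIs of the CD3-high side. Those came from well P9 alone (4) in row P, and from P9 and O16 (4 and 2) with 10 wells.

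Egr1, a transcription factor of the same immediate response, had 12 UMIs in the CD3-low wells, all in well O10, and 24 in the CD3-high wells, of which well P9 held 16. Its log2 ratio of 1.22 (0.17 to 2.36) became -0.22 without P9 and 3.13 without O10, and in plate row O alone it was -0.41. It therefore has no direction that holds over single wells. Egr2 had 4 and 2 UMIs and Cd69 had 3 and 6.

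Cd6, a co-receptor of mature T cells that tunes TCR signals, had 0 to 3 UMIs per CD3-low well (median 0) and 0 to 6 per CD3-high well (median 1). Its sums were 9 and 23 UMIs with a log2 ratio of 1.58 (0.41 to 2.87), and the CD3-middle wells were near the CD3-high level at 324.6 CPM against 404.2. Cd28, the main costimulatory receptor, had 19 and 31 UMIs and a log2 ratio of 0.93 (0.06 to 1.84). Gata3, a transcription factor that CD4 cells require, was detected in 6 of 14 CD3-low and 12 of 14 CD3-high wells, with 9 and 18 UMIs and a log2 ratio of 1.22 (-0.01 to 2.56). In plate row P alone Gata3 was at -0.002. Cd5, a surface inhibitor that tracks TCR signal strength, stood at 0.53 (-0.35 to 1.44). Over the 43 wells, the rank correlation with the CPM of Cd8a and Cd8b1 was -0.34 for Cd6, -0.42 for Cd28, -0.46 for Gata3 and -0.23 for Cd5. Wells with at least 3 CD8 UMIs were 6 of 14 CD3-low and 0 of 14 CD3-high wells. A difference by CD3 and a difference by CD8 therefore cannot be told apart for these genes, and the part of the CD8-bearing wells was not tested.

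The CD3-high wells O7 and O22 carried several of these genes at once. Well O7 had 14 UMIs of Nr4a1, 9 of Tespa1, 9 of Cd5, 6 of Cd6, 6 of Bcl2l11, 5 of Nfkbia, 4 of Egr1 and 4 of Cd69. Well O22 had 9 of Nfkbia, 5 of Bcl2l11, 4 of Tespa1, 3 of Egr1 and 2 of Nr4a1. Their CD3 fluorescence, 13188 and 13116, was the lowest of the CD3-high wells. With 10 wells at each end, which leaves both out, the log2 ratio of the positive selection list was 0.27, and without O7 alone it was 0.44. In the CD3-low group well O10 had 47 of the 192 UMIs of the list, and without it the ratio was 1.00. Within plate row O the ratio was 1.04 and within row P it was 0.12, so the size of this difference was not the same in the 2 rows.

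Nfkbia and Tespa1 led the genes chosen for their size of difference. Nfkbia encodes IκBα, the inhibitor and target of NF-κB, and had 0 to 3 UMIs per CD3-low well (median 0) and 0 to 9 per CD3-high well (median 1.5). Its sums of 8, 27 and 29 UMIs in CD3-low, CD3-middle and CD3-high wells gave a log2 ratio of 2.08 (0.92 to 3.42) between the outer groups. Tespa1, a thymocyte protein of TCR signalling, had 7 and 24 UMIs with a log2 ratio of 2.00 (0.74 to 3.46). Both depend on the wells taken. With 10 wells at each end Tespa1 was at 0.02, and in plate row P Tespa1 was at -0.002 and Nfkbia at 0.68.

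The Gimap family was higher in the CD3-high wells, and its log2 ratio stayed between 0.67 and 1.04 when any single well was left out. Its 7 measured members had 103 UMIs in the CD3-low, 143 in the CD3-middle and 154 in the CD3-high wells, or 1550 CPM (1265 to 1879), 1857 CPM and 2706 CPM (2296 to 3169). The log2 ratio was 0.80 (0.44 to 1.18). Single wells ranged from 215.6 to 6704 CPM in the CD3-low group (median 1423) and from 0 in well P4 to 4346 CPM in the CD3-high group (median 2860). The groups overlapped, and the well with the highest value of all, O9 with 19 UMIs, was CD3-low. Without O9 the log2 ratio was 1.04, within plate row O it was 0.79 and within row P 0.92.

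The genes of the family lie side by side on chromosome 6, from 48647234 (Gimap8) to 48770851 (Gimap3) in GRCm38. Gimap6 had 18 and 35 UMIs with a log2 ratio of 1.18 (0.32 to 2.09), and was found in 9 of 14 CD3-low and 13 of 14 CD3-high wells. The ratio of Gimap6 was as low as 0.97 without a single well (O15) and was 0.30 in thinned wells. Gimap4 had 27 and 47 UMIs with a log2 ratio of 1.02 (0.31 to 1.76), which was as low as 0.88 without a single well (O22). These are the members past 2-fold, 2 of the 4 with at least 20 UMIs, where 5.1% of all 1058 genes were at least 2-fold higher. Leaving out any of several single wells took Gimap4 below 2-fold. Gimap3 stood at 0.71 (-0.17 to 1.62), Gimap8 at 0.51 (-0.26 to 1.30), and Gimap1, with 9 and 7 UMIs, at -0.14 (-1.80 to 1.46). Over the 43 wells, which share a plate and a mouse, the rank correlation with CD3 fluorescence was 0.39 for the CPM of the family, 0.40 for Trac, 0.27 for the positive selection genes, 0.13 for the TCR and CD3 complex, 0.01 for Cd4 and -0.23 for Cd8a and Cd8b1. The Pearson correlation with log2 CD3 fluorescence was 0.23 for the family and 0.35 for Trac.

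**Figure D2:**
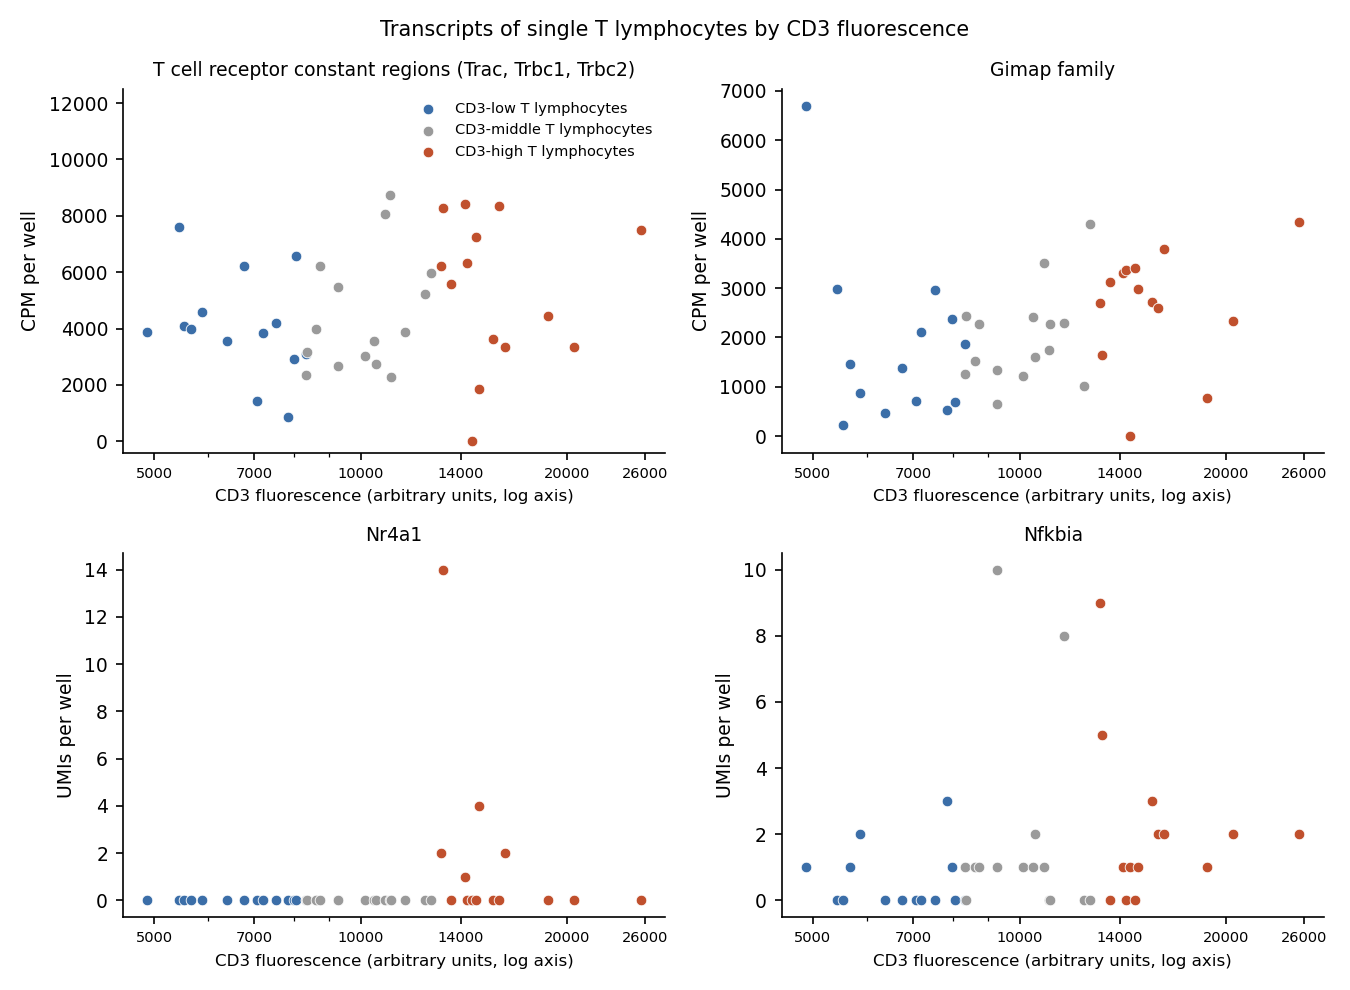
Transcripts per well against CD3 fluorescence (arbitrary units, log axis), 1 point per T lymphocyte well, colored by group: CPM of the 3 TCR constant region genes and of the Gimap family, and UMIs of Nr4a1 and Nfkbia. Nr4a1 is above 0 in 5 CD3-high wells and in no other well, and for the other 3 measures the groups overlap, with the CD3-high well P4 at 0 in both upper panels.

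Genes of the immature double-positive stage were at low and like levels in the outer groups, with a UMI in 10 of 14 CD3-low and 12 of 14 CD3-high wells. Rag1 and Rag2, which cut the receptor genes for rearrangement, and Arpp21 had 0 UMIs in every well. Dntt, the polymerase that adds bases at the joints, had 6 UMIs in the CD3-low, 5 in the CD3-middle and 0 in the CD3-high wells. The 11 measured genes of the list had 26 and 22 UMIs in the outer groups (391 and 387 CPM) and 46 in the CD3-middle wells (597 CPM), a log2 ratio of -0.02 (-0.91 to 0.86), with most UMIs from the broadly expressed Tcf12 and Rmnd5a. Ptcra and Ccr9 were not analysed here.

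Genes of late maturation and exit from the thymus were also at like levels. The 14 genes had 389 and 338 UMIs, 5852 CPM (5285 to 6464) against 5940 CPM (5323 to 6608), a log2 ratio of 0.02 (-0.19 to 0.24). Klf2 and S1pr1, the factor and the receptor for exit, had 14 and 13 UMIs and 14 and 8 UMIs. Ccr7, the chemokine receptor for the medulla and lymph nodes, had 22 and 28 UMIs at 0.57 (-0.29 to 1.45). Cd52, a small surface glycoprotein, had 82 and 84 UMIs at 0.26 (-0.20 to 0.72).

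Of the 14 members, 1 was at least 2-fold higher and 1 at least 2-fold lower, near the share over all genes (5.1% and 4.73%). Slfn2, which keeps T cells quiescent, had 7 and 17 UMIs with a log2 ratio of 1.50 (0.16 to 3.02). S100a10, the partner of annexin A2, had 25 and 6 UMIs with a ratio of -1.84 (-3.41 to -0.51), and 0 to 7 UMIs per CD3-low well (median 1) against 0 to 2 per CD3-high well (median 0). Itgb7, an integrin β chain, had 14 and 6 UMIs at -1.00 (-2.67 to 0.47). All of its CD3-low UMIs lay in the CD8-bearing wells P19 (5), O8 (4), O3 (3) and O21 (2). Its rank correlation with the CPM of Cd8a and Cd8b1 over the 43 wells was 0.52.

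Among 14 measured genes of TCR signalling the sum was higher in the CD3-high wells, at 0.35 (0.13 to 0.56), which is the size of the list's most counted gene, Ptprc (CD45), at 0.31 (0.02 to 0.61). Ptpn6, the phosphatase SHP-1, and Csk, the kinase that restrains Lck, were both at 1.03, with intervals of 0.10 to 2.02 and -0.06 to 2.19. These 2 genes were past 2-fold among the 5 with at least 20 UMIs, where 5.1% of all 1058 genes were at least 2-fold higher. Leaving out any of several single wells took either gene below 2-fold. The ratio of Ptpn6 was then as low as 0.86 (O15) and that of Csk 0.62 (P16). Lat, the adaptor, stood at 0.36 (-0.21 to 0.93) and Zap70, the kinase at the CD3 chains, at -0.55 (-2.14 to 0.91).

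Transcription factors of the T lineage were at like levels in both groups. The list stood at -0.08 (-0.31 to 0.15). Tcf7, which encodes TCF-1, had 86 and 72 UMIs at -0.03 (-0.50 to 0.44), Bcl11b had 58 and 45 at -0.14 (-0.74 to 0.45) and Satb1 had 71 and 77 at 0.34 (-0.14 to 0.83). Id2, an inhibitor of E proteins, had 32 and 6 UMIs with a log2 ratio of -2.19 (-3.74 to -0.91). Of these, 26 UMIs came from the single CD3-low well P3, and without it the log2 ratio was 0.12.

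MHC class I genes and their peptide loading stood at -0.21 (-0.45 to 0.04), with B2m, the shared light chain, at 212 and 153 UMIs and -0.25 (-0.56 to 0.06). Within plate row O the list was at -0.45 and within row P at 0.19, so it had no direction common to both. Genes of DNA replication and mitosis stood at -0.26 (-0.64 to 0.12). Mki67, the marker of cycling cells, had 16 and 12 UMIs, at most 4 in any of the 28 wells, and Top2a, a topoisomerase of dividing cells, had 4 and 6.

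Genes of survival and death had 62 and 63 UMIs, a log2 ratio of 0.25 (-0.28 to 0.78). Mcl1, a survival factor, had 13, 42 and 23 UMIs in CD3-low, CD3-middle and CD3-high wells and 1.05 (0.01 to 2.15) between the outer groups. Bcl2, of the same family, had 36 and 21 UMIs at -0.55 (-1.40 to 0.26), with 12 of the CD3-low UMIs in well O21. Bcl2l11, which encodes the death factor BIM, had 4 and 13 UMIs, the latter from wells O7, O22 and P12 alone, and was at -0.17 with 10 wells at each end.

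**Figure D3:**
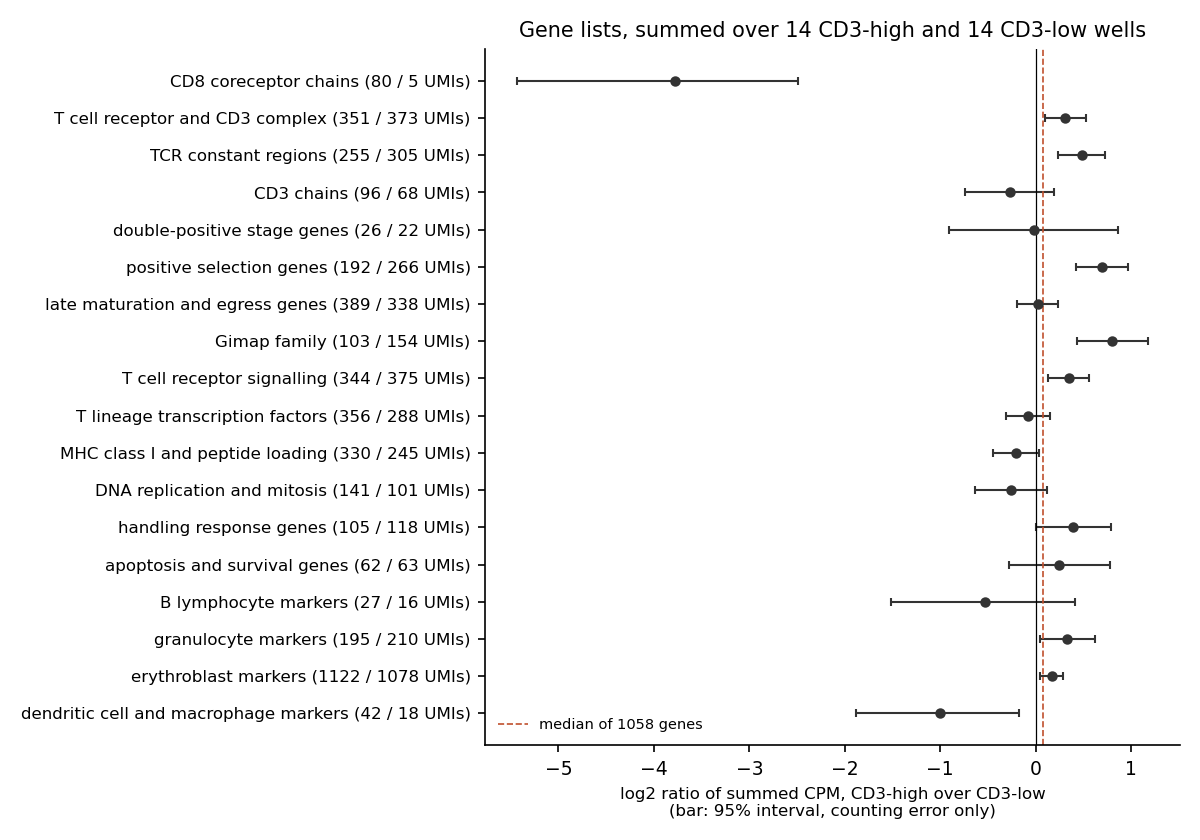
Log2 ratio of summed CPM, CD3-high over CD3-low, for gene lists, with the UMIs of each group in parentheses (CD3-low first); bars are 95% intervals for counting error and the dashed line is the median of the 1058 genes tested, 0.07. The CD8 chains lie at -3.78, the Gimap family at 0.80 and the positive selection genes at 0.70, while the double-positive and late maturation lists lie near 0.

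Among genes named only for the size of their difference, the higher ones in the CD3-high wells were of mixed function. Cd84, a SLAM family receptor, had 9 and 24 UMIs with a log2 ratio of 1.64 (0.48 to 2.93), and Dgkd, a diacylglycerol kinase, had 16 and 31 with 1.18 (0.26 to 2.15). Psmb1, a proteasome subunit, stood at 1.45 (0.26 to 2.76) and Eno1, the glycolytic enolase, at 1.34 (0.30 to 2.46). Gm8960, Gm4997, Gm9701 and Gm5045 are processed pseudogenes, with ratios from 1.16 to 1.85, and their counts are uncertain because reads of the parent genes can map to them.

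The lower genes were likewise mixed. Atp5c1, a subunit of the mitochondrial ATP synthase, had 26 and 6 UMIs with a log2 ratio of -1.89 (-3.46 to -0.58), from 10 of 14 CD3-low and 5 of 14 CD3-high wells. It overlaps another annotated gene on the same strand. Srgn, the granule proteoglycan serglycin, had 28 and 8 UMIs at -1.58 (-2.93 to -0.41), and Itga4, the integrin α4 chain, had 39 and 14 at -1.25 (-2.25 to -0.34), of which well O21 held 11. Without O21 the ratio of Itga4 was -0.97. Arpc1b, Tardbp, Thoc2 and Fryl lay between -1.31 and -1.10. Lyz2, a lysozyme of granulocytes and macrophages, had 26 and 10 UMIs at -1.15 (-2.37 to -0.05). No interval in this group of 24 genes is adjusted for having been picked at the ends of the ranking.

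**Figure D4:**
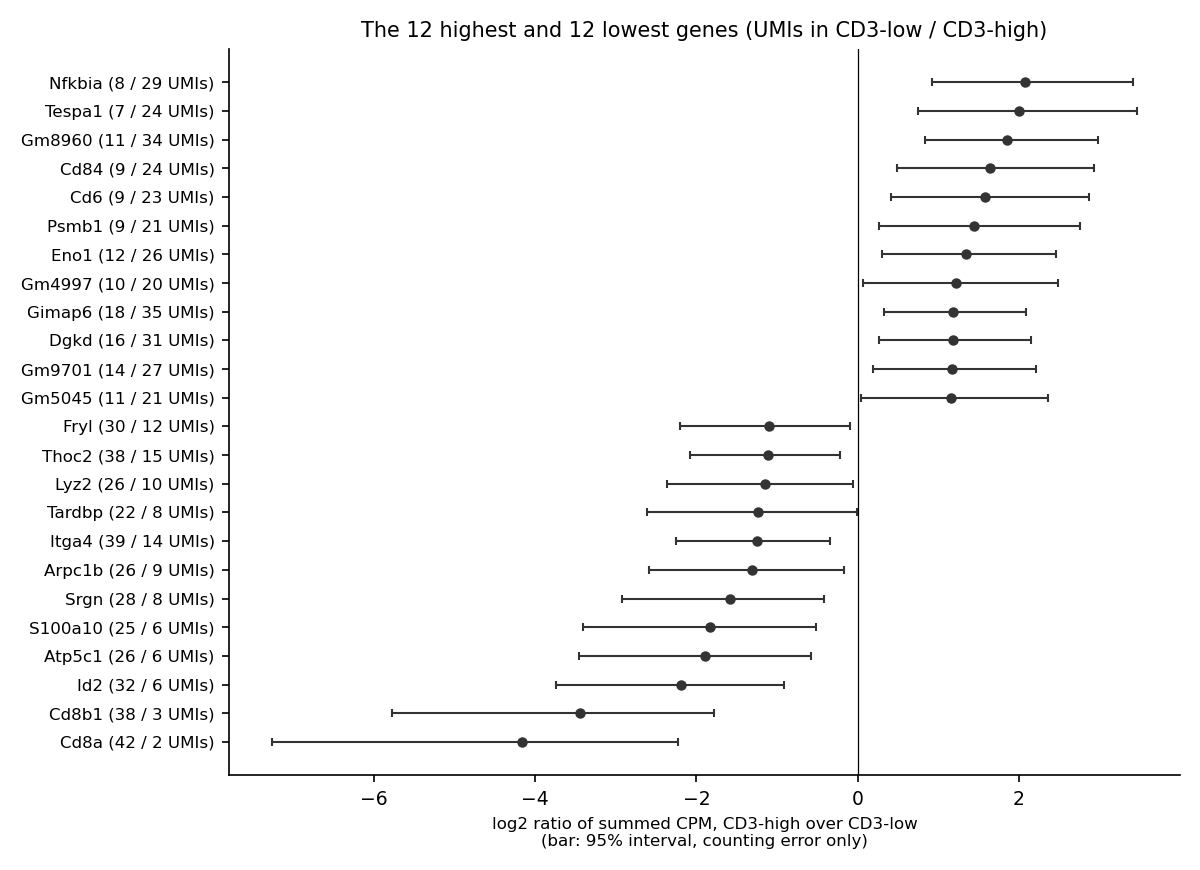
Log2 ratio of summed CPM, CD3-high over CD3-low, of the 12 top-ranked and 12 bottom-ranked genes among those with at least 30 UMIs, with the UMIs of each group in parentheses (CD3-low first); bars are 95% intervals for counting error. Cd8a at -4.17 and Cd8b1 at -3.44 lie apart from the other genes, which run from -2.19 (Id2) to 2.08 (Nfkbia).

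Erythroblast and granulocyte transcripts were present in every well of both groups. The 7 erythroblast markers, all detected, had 1122 and 1078 UMIs at 0.17 (0.05 to 0.29), with 8085 to 33480 CPM per CD3-low well and 12510 CPM to the 119700 CPM of well P4 among the CD3-high wells. The 8 granulocyte markers, also all detected, stood at 0.33 (0.04 to 0.62), with 1189 to 5440 CPM per CD3-low well and 1745 to 21130 CPM per CD3-high well, where P4 again was the highest. Of the 12 markers of dendritic cells and macrophages, Itgax, C1qa, C1qb and Siglech were at 0 in all 43 wells. The others had 42 and 18 UMIs at -1.00 (-1.88 to -0.17), 26 and 10 of them from Lyz2. B lymphocyte markers had 27 and 16 UMIs at -0.53 (-1.52 to 0.41), with Pax5 at 0. Progenitor markers had 9 and 16 UMIs at 1.05 (-0.21 to 2.42). Of these, Hlf had 2 and 7 and Adgrg1 had 2 and 6, whereas Kit had 3 and 1 and Flt3 had 2 and 1. Of 8 thymic stroma markers, 4 were measured. They had 9 UMIs in each group, all from Pecam1, with Epcam, Col1a1 and Psmb11 at 0 in both groups. Genes of regulatory and innate-like T cells had 18 and 11 at -0.49 (-1.71 to 0.67). The part of these transcripts in the differences above was not tested.

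Genes that respond to the handling of cells had 105 and 118 UMIs at 0.39 (0.001 to 0.79). Fos, Fosb and Hspa1b were at 0 in all 43 wells, which may also be a lack of detection. Jun had 3 and 0 UMIs and Junb 6 and 2. Ier2, another immediate early gene, had 4 and 9. Hsp90ab1, the most counted gene of the list, had 54 and 65, and Hsp90aa1 had 5 and 11. The part of handling in the results was not tested. The median share of UMIs from mitochondrial genes was 1.17% in the CD3-low and 2.26% in the CD3-high wells, with ranges of 0.49% to 6.73% and 0.45% to 3.29%. The sums, on which the ratios rest, went the other way for the most counted mitochondrial gene. This gene, mt-Rnr2, made up 1.307% of summed UMIs in the CD3-low and 0.659% in the CD3-high wells. The part of mitochondrial transcripts in the results was not tested.

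Of the other index values, CD44, Sca-1 and forward scatter had higher medians in the CD3-high wells, whereas side scatter area had medians of 18112 and 17664. CD44 fluorescence, from an adhesion receptor that is high on activated and memory cells, had a median of 124.5 (20 to 4542) in the CD3-low and 555 (69 to 1953) in the CD3-high wells. Sca-1 had a median of 98 (-79 to 492) and 423 (-52 to 1713), and forward scatter area, a measure of cell size, had 78592 (66752 to 93632) and 85408 (74816 to 92864). For all 3 values the CD3-middle median lay between the others and the groups overlapped. Over the 43 wells the rank correlation with CD3 was 0.38 for CD44, 0.30 for Sca-1 and 0.33 for forward scatter, and the Pearson correlation with log2 CD3 was 0.14, -0.03 and 0.33. The genes of these antigens were hardly detected, with 0 UMIs of Cd44 in all 43 wells and 0, 4 and 1 UMIs of Ly6a, which encodes Sca-1. Ranked by CD3 divided by forward scatter instead, the log2 ratio was 0.69 for the Gimap family, -1.63 for Cd8a and 0.15 for the positive selection genes.

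**Figure D5:**
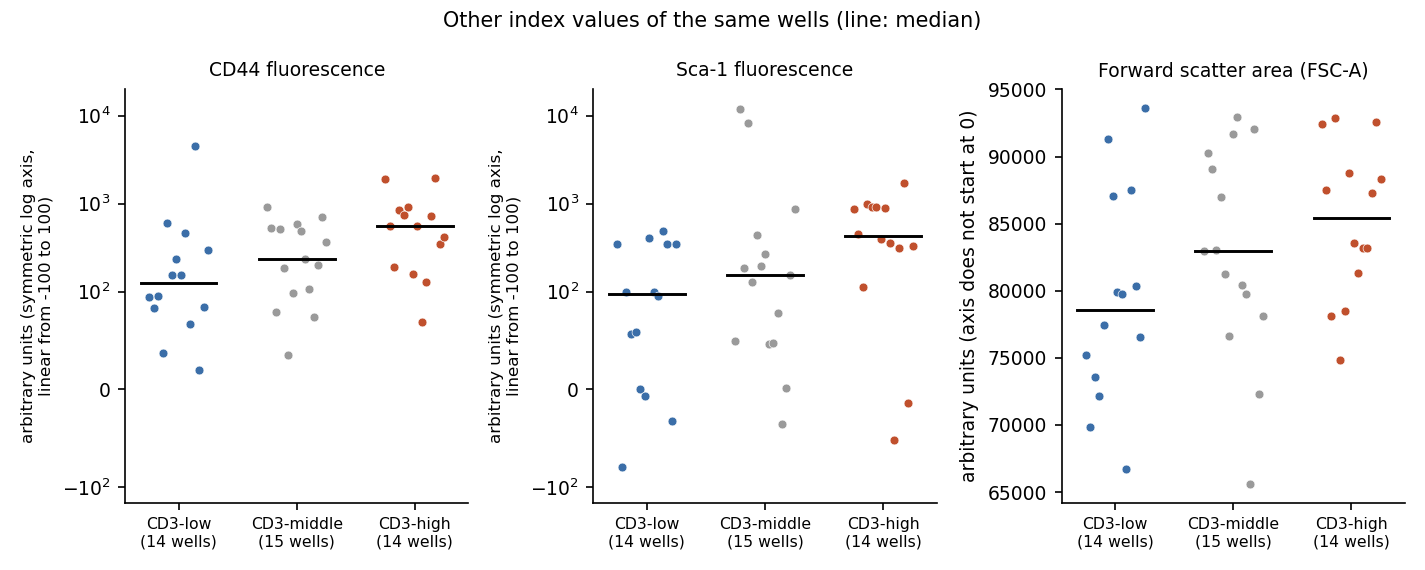
CD44 and Sca-1 fluorescence (arbitrary units, symmetric log axis) and forward scatter area (arbitrary units, axis not from 0) of the T lymphocyte wells by CD3 group, 1 point per well in order of CD3 fluorescence within the group, with the median as a line. The medians are 124.5, 234 and 555 for CD44, 98, 153 and 423 for Sca-1, and 78592, 82944 and 85408 for forward scatter, and all groups overlap.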

How the data were processed

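Single cells of 5 populations of 1 mouse, sorted on 1 plate, were profiled by CEL-seq2. The values deposited by the authors are raw UMI counts, whole numbers for each gene in each well. They were made with scPipe, which aligns reads (Rsubread is its default), assigns them to exons, splits them by well barcode and merges UMIs that differ by at most 1 base where 1 of them has over 2 times the count of the other. For the aligner version, genome build, annotation and strand the entry is "not given in the sources used here". On the layout of read 1 the labels contradict each other. Each column was tied to its sample through the plate position, and 9 columns without a sample were set aside.

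Index fluorescence came from the labels. The members and lists were chosen with earlier results of these data known. Counts were summed over the wells of a group, on mouse genes without ERCC spike-ins, and scaled to CPM. All cells are of 1 mouse, so no test was run. Intervals are 95% exact Poisson for sums, exact conditional binomial for ratios and exact binomial for shares, and cover counting error only. UMIs remove most amplification duplicates but not losses before barcoding. Genes with at least 20 UMIs in both groups together were counted past 2-fold, with sums under 3 UMIs set to 3. Only 101 genes had at least 100 UMIs, so most ratios are wide. Genes were named as the 12 highest and 12 lowest ratios among those with 30 or more UMIs that were detected in 5 or more wells of the higher group, the genes of the 21 lists with at least 10 UMIs, and the 3 most abundant genes. The latter were Gm42418 (17.09% of UMIs in CD3-low, 15.32% in CD3-high wells), Mir6240 and mt-Rnr2. Klrd1, Rag1, Rag2 and other genes below 10 UMIs that the text names were chosen after their values were seen. No doublet caller was run, since each well was sorted as 1 cell.

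Symbols and positions are from GENCODE M21 (GRCm38) and promoters from RefSeq (GRCm38.p6). The 15 alternatives changed normalization (scran 1.30.0), weighting, depth, wells, ranking and filters. Python 3.11.15 with numpy 2.4.6, scipy 1.17.1 and pandas 2.3.3 was used. The computation of the intervals was checked on simulated sums. These held counting error only, without spread between wells, so the check does not bear on the spread of real wells. Genes named in the lists without a row are not analysed here.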

Additional observations from a re-analysis of the deposited data

How the results depend on the processing

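The direction of the log2 ratio of the Gimap family held in all 11 alternatives, from 0.55 with every well at equal weight to 0.92 in plate row P, and that of the T cell receptor and CD3 complex from 0.11 with 10 wells at each end to 0.37 in row P. The positive selection genes, at 0.70, stood at 0.27 with 10 wells at each end, 0.15 when ranked by CD3 over FSC-A, 1.04 in row O and 0.12 in row P. The late maturation genes stood at 0.28 when ranked by CD3 over FSC-A and 0.38 in row P. The MHC class I genes stood at 0.054 with wells thinned to 1500 UMIs, 0.13 when ranked by CD3 over FSC-A and 0.19 in row P. The DNA replication and mitosis genes stood at 0.71 with 21 wells at each end and 0.63 when ranked by CD3 over FSC-A, both of which take in the CD3-middle well O4 with 41 Mki67 UMIs. The double-positive list, at -0.02, ran from -0.74 to 0.26.

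Of 1058 genes, 54 were at least 2-fold higher and 50 at least 2-fold lower. The higher count was 14 in thinned wells, 98 with 21 wells, 84 when ranked by CD3 over FSC-A, 22 in row P, 6 at a minimum of 50 UMIs and 361 with every gene. The lower count was 9 in thinned wells, 33 in row O, 23 in row P, 3 at 50 UMIs, 230 with every gene and 32 with a pseudocount of 1 UMI. Fewer wells or UMIs leave fewer genes tested. Leaving out each well in turn gave 48 to 65 higher and 41 to 56 lower genes, 0.24 to 0.40 for the T cell receptor and CD3 complex, -0.15 to 0.16 for the double-positive, 0.44 to 1.00 for the positive selection and -0.09 to 0.12 for the late maturation genes, 0.67 to 1.04 for the Gimap family, -0.34 to -0.11 for MHC class I and -0.36 to -0.07 for DNA replication.

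Of 506 values of 46 named genes under alternatives, 472 stayed inside the counting interval of the reported value and 28 moved outside it without a change of sign in a gene past 2-fold. In all, 26 values of 11 genes had the other sign, most of them of genes within 2-fold, such as Cd4, Cd5, Bcl11b, Tcf7 and B2m. Among genes past 2-fold, 6 values changed sign: Tespa1 (-0.002) and Gata3 (-0.002) in row P, Egr1 in row O (-0.41), and Bcl2l11 with 10 wells (-0.17), ranked by CD3 over FSC-A (-0.61) and in row P (-0.42). Leaving out each well, Id2 ran from -2.69 to 0.12 (without P3) and Egr1 from -0.22 (without P9) to 3.13. The causes were not tested. The median log2 ratio of all genes ran from 0.02 to 0.12, and was 0.22 with every gene. No paired analysis was possible because replicate numbers only name wells of 1 mouse.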

Other observations

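Among the CD3-middle T lymphocytes, 1 well carried many transcripts of dividing cells. Well O4 had 10874 UMIs, the most of the 43 T lymphocyte wells, with 41 UMIs of Mki67 and 27 of Top2a, and it also had the most CD8 UMIs (28). Its ratio of forward scatter area to height was 1.323, above the highest of the CD3-high wells (1.26). Well P21, also CD3-middle, had 4.814% of its UMIs from hemoglobin genes and 1.514% from granulocyte markers.

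Klrd1, which encodes CD94, a receptor of natural killer and CD8 T cells, was chosen after its values were seen. It had 5 UMIs in the T lymphocytes, in CD3-low wells O21 (3), O3 (1) and O8 (1), which had 6, 9 and 19 CD8 UMIs. Of the 11 Dntt UMIs of the T lymphocytes, none lay in a CD3-high well.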
